A study of Mus musculus with 2 samples.

Results

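Transcripts of 10 genes of cadherin adhesion and apical-basal polarity were compared between the second polar body (PB2) of the mouse embryo and its zygote, both taken at the 1-cell stage. The genes were taken by name for their roles: Cdh1, Ctnna1, Ctnnd1, Jup and Vcl for adhesion, and Pard3, Pard6b, Prkci, Mark2 and Scrib for polarity. Of the 10 genes, 9 were found among the 11262 genes of the deposited table, and Scrib was not analysed here. Both samples came from untreated embryos, labelled C57BL/6 and given as C57BL/6N in the study's methods, that were collected from the oviduct and cultured. The zona pellucida was dissolved in acid Tyrode's solution, and PB2 was then pipetted off the embryo in 0.25% trypsin late in the 1-cell stage. Each sample is 1 library of amplified polyA RNA from pooled PB2s or pooled zygotes, and how many animals gave the embryos is not stated in the sources used here.

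PB2 is the small cell that the egg gives off when it completes meiosis after fertilization, and it keeps a little ooplasm of the egg. In epithelia and in the compacting embryo, E-cadherin holds neighbouring cells together through its extracellular part, while its tail binds p120-catenin and either β-catenin or plakoglobin. These in turn recruit α-catenin, which binds actin and, under tension, vinculin. Apical-basal polarity rests on a mutual exclusion: Par3, Par6 and atypical protein kinase C (aPKC) mark the apical side, and the kinase Par1 and the Scribble proteins mark the basolateral side. In the mouse embryo both systems are best known from compaction, when the blastomeres flatten on each other and their outer surface becomes apical.

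With 1 library per group there is no spread between samples and no test, so each difference describes only this pair of libraries. Levels are in TPM, a length-adjusted share of each library's transcripts scaled to a fixed total, deposited to 1 decimal. The deposited values summed to 898326.3 in PB2 and 927062.7 in the zygote, not to the same total, so the table may not hold every gene. Absence from it does not show that a gene was not expressed. The number of reads is unknown, and so is the counting error. TPM is a share, so whether a PB2 holds more or less of a transcript than a zygote, or how many cells stand behind a value, cannot be told apart from it. Genes were compared by the log2 ratio, log2((PB2 TPM + 1)/(zygote TPM + 1)), in which the added 1 understates the change of low genes. The 10645 genes with at least 1 TPM in either library entered the comparison, the 9 members among them. All 12 oocyte markers examined were found in both libraries, led by Oosp1 in PB2 (10495.6 TPM) and Dppa3 in the zygote (22561.9 TPM). Of 12 markers of cumulus and granulosa cells 4 were in the table, with a summed level of 76.4 TPM in PB2 against 74.7 in the zygote, nearly all of it Cyp19a1 (70.9 and 72.2 TPM). Epcam, an epithelial adhesion molecule and the only 1 of 6 oviduct markers in the table, had 4.4 and 2.9 TPM, Prm2, the only 1 of 6 sperm markers, had 22 and 19.8 TPM, and none of 4 blood markers was in the table. The part of such cells in the results was not tested.

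Of the 9 members, 4 were past 2-fold towards PB2, that is, at least 2-fold higher there: Mark2, Cdh1, Pard6b and Pard3. This is 44.4% of the members, beside 18.9% of all genes compared. Only Vcl was past 2-fold towards the zygote, 11.1% of the members beside 8.09% of all genes. Jup, Ctnnd1, Ctnna1 and Prkci lay within 2-fold. The median log2 ratio of the members was 0.92, against 0.21 for all genes compared, and the polarity members (median 1.47, 4 genes) lay above the adhesion members (median 0.51, 5 genes). With the log2 ratios centred on the median of all genes, the members still gave 4 and 1, while the counts over all genes went from 2009 and 861 to 1383 towards PB2 (13%) and 1291 towards the zygote (12.1%). The members' count did depend on transcript GC content, which moved with the log2 ratio across the table. With the GC trend removed, Cdh1 alone stayed past 2-fold towards PB2, where 9.08% of all genes did, and Vcl alone towards the zygote, where 11% did.

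**Figure D1:**
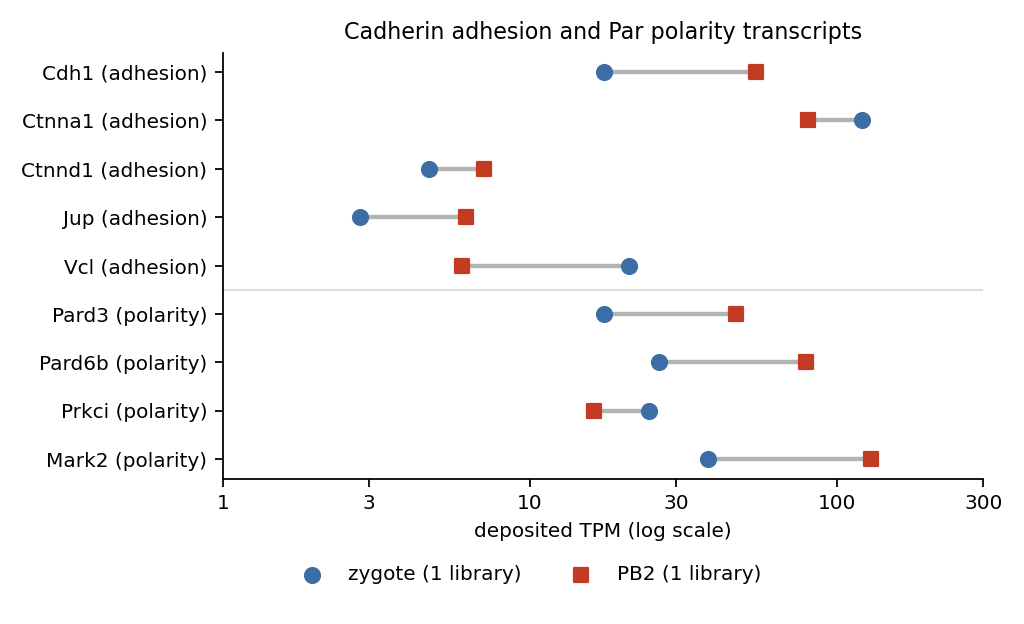
Deposited TPM of the 9 members on a log axis, with a square for the PB2 library and a circle for the zygote library joined by a grey bar. Cdh1, Pard3, Pard6b and Mark2 lie well to the right in PB2 (46.9 to 128.9 TPM against 17.4 to 38.1 TPM), and Vcl lies to the left there (6.0 against 21 TPM).

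In PB2 the members ran from Mark2 (128.9 TPM) through Ctnna1 (80.4), Pard6b (79.7), Cdh1 (54.7), Pard3 (46.9), Prkci (16.2), Ctnnd1 (7.1) and Jup (6.2) to Vcl (6.0 TPM). In the zygote the order was Ctnna1 (121.1 TPM), Mark2 (38.1), Pard6b (26.3), Prkci (24.4), Vcl (21), Cdh1 (17.5), Pard3 (17.4), Ctnnd1 (4.7) and Jup (2.8 TPM). Ctnnd1 and Jup were near the low end of the members in both libraries, and Vcl moved from the middle of the order in the zygote to its end in PB2. Without replicates it cannot be said which neighbours in these orders differ. Cdh1 and Pard3 in the zygote were 1 rounding step apart.

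Cdh1 encodes E-cadherin, the adhesion receptor of the junction. It had 54.7 TPM in PB2 against 17.5 in the zygote. The level in PB2 was 3.13 times that in the zygote, and the rounding of the deposited values allows 3.11 to 3.14. Its log2 ratio was 1.59, and 670 of the genes compared had a larger one. Cdh1 stood above 79.4% of the genes of the table in PB2 and above 62.8% in the zygote. Its longest protein-coding transcript has 16 exons, 4430 nucleotides and a GC content of 50.7%, close to the 49.1% of the median gene compared. Among the 1061 genes in the same GC range, from 49.1% to 50.9%, 16.1% were past 2-fold towards PB2, and with the GC trend removed the log2 ratio of Cdh1 was 1.26. In GENCODE M21 the gene lies on the plus strand of chromosome 8 of GRCm38, from 106603351 to 106670246. Pard3 lies on the same strand of the same chromosome, from 127063893 to 127612286, and no other member lies on that chromosome.

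Of the catenins that bind the cadherin tail directly, the members Ctnnd1 and Jup were low. Ctnnd1 encodes p120-catenin, which binds next to the membrane and holds cadherin at the surface. The gene is on the minus strand of chromosome 2 (84600071 to 84650765). It had 7.1 TPM in PB2 against 4.7 in the zygote, a log2 ratio of 0.51. In GENCODE M21, 61.2% of its exonic bases are shared with Gm28635 on the same strand, so its level depends on how reads common to both were counted, and Gm28635 was not analysed here. Jup encodes plakoglobin, the relative of β-catenin that also sits in desmosomes. The gene is on the minus strand of chromosome 11 (100368958 to 100397763). It had 6.2 TPM in PB2 against 2.8 in the zygote, 2.21 times as much, with 2.16 to 2.27 allowed by rounding. Its log2 ratio of 0.92 stayed under 2-fold only because of the pseudocount, and it was 1.12 with a pseudocount of 0.1. The Jup transcript is the richest in GC of the members, at 58.8%. With the GC trend removed its log2 ratio was 0.02, close to that of the median gene of its GC content.

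Ctnna1 and Vcl, which link the junction to actin, had lower levels in PB2. Ctnna1 encodes αE-catenin, the link between the cadherin-bound catenins and actin filaments. The gene is on the plus strand of chromosome 18 (35118859 to 35254779). It had 80.4 TPM in PB2 against 121.1 in the zygote, where it was the most abundant member. The zygote level was 1.51 times that in PB2, a log2 ratio of -0.58. Vcl encodes vinculin, a homologue of α-catenin that binds it and actin when the junction is under tension. The gene is on the plus strand of chromosome 14 (20929398 to 21033676). It had 6.0 TPM in PB2 against 21 in the zygote, 3.5 times as much, with 3.46 to 3.54 allowed by rounding. Its log2 ratio of -1.65 was undercut by 160 of the 10645 genes compared. The GC content of the Vcl transcript is 48.6%, and with the GC trend removed the log2 ratio was -1.81, further from 0. In GENCODE M21, 25.5% of the exonic bases of Vcl are shared with Ap3m1 on the opposite strand, and whether the counting used strand is not given in the sources used here. Ap3m1 had 67.3 TPM in PB2 against 109.3 in the zygote, a log2 ratio of -0.69, so reads from either gene may enter the value of the other.

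Ratios between members within a library do not depend on how the libraries are scaled. The pairs given here were chosen after the values were seen. Per Cdh1 transcript there were 6.92 Ctnna1 transcripts in the zygote and 1.47 in PB2. For Vcl the same figure was 1.20 in the zygote and 0.11 in PB2. Ctnnb1, which encodes β-catenin, stood at 2.87 per Cdh1 transcript in the zygote and 2.73 in PB2. Thus E-cadherin and β-catenin transcripts kept nearly the same proportion in both libraries, while the actin-binding members took a smaller share beside them in PB2.

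Pard3 encodes the Par3 scaffold that places the apical complex at the membrane. It had 46.9 TPM in PB2 against 17.4 in the zygote, 2.70 times as much and a log2 ratio of 1.38. Pard6b encodes a Par6 adaptor that joins aPKC to Cdc42. The gene, of only 3 exons, is on the plus strand of chromosome 2 (168081004 to 168101203). It had 79.7 TPM in PB2 against 26.3 in the zygote, 3.03 times as much and a log2 ratio of 1.56. Both scaffold genes were thus past 2-fold towards PB2. Prkci encodes aPKC iota, the kinase of the complex. The gene is on the plus strand of chromosome 3 (30995747 to 31052959). It had 16.2 TPM in PB2 against 24.4 in the zygote, a log2 ratio of -0.56, and was the only polarity member with the lower level in PB2. Mark2 encodes Par1b, the basolateral kinase that aPKC phosphorylates and that in turn phosphorylates Par3. The gene is on the minus strand of chromosome 19 (7275396 to 7341860). It had 128.9 TPM in PB2 against 38.1 in the zygote, 3.38 times as much. Its log2 ratio of 1.73 was the largest of the members, and 483 genes had a larger one. In PB2 Mark2 stood above 90.0% of the genes of the table.

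Set against Prkci within each library, Mark2 had 1.56 times its level in the zygote and 7.96 times in PB2. Pard6b had 1.08 times the level of Prkci in the zygote and 4.92 times in PB2, and Pard3 had 0.71 and 2.90 times. The scaffolds of the apical complex and its kinase were thus near each other in level in the zygote and apart in PB2.

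The transcripts of these polarity members are richer in GC than the median gene, except that of Prkci. GC contents were 52.8% for Pard3, 53.8% for Pard6b, 57.3% for Mark2 and 44.5% for Prkci. Among genes in the same GC range, 22.8% were past 2-fold towards PB2 for Pard3, 30.4% for Pard6b and 39.2% for Mark2. With the GC trend removed the log2 ratio was 0.90 for Pard3, 0.999 for Pard6b and 0.90 for Mark2, all just under 2-fold, and -0.48 for Prkci. The part of GC content in these differences was not tested.

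**Figure D2:**
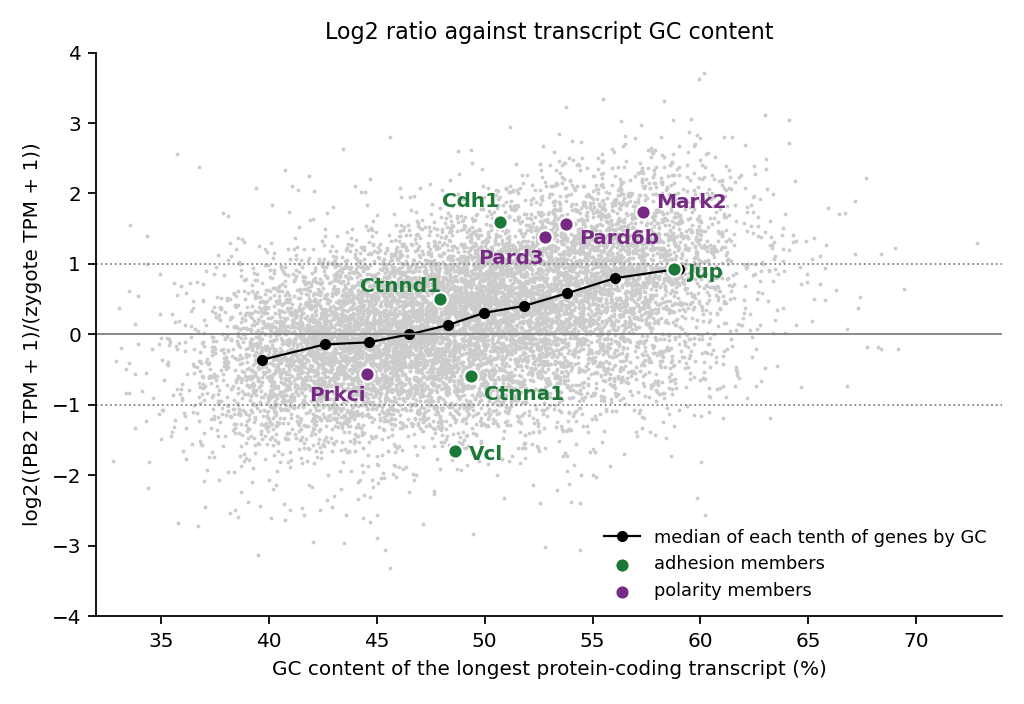
Log2 ratio of the genes compared (grey points) against the GC content of the longest protein-coding transcript in percent, with the median of 10 groups of genes of rising GC content as a black line, adhesion members in green and polarity members in purple, and dotted lines at 2-fold. The black line climbs from -0.36 to 0.93. Cdh1 and Vcl lie farthest from it, above and below, and Jup lies on it.

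Promoter windows of RefSeq (GRCm38.p6), the 250 bases before a transcription start, were found for 7 of the 9 members, and not for Cdh1 or Ctnna1. Those of Pard6b and Mark2, past 2-fold towards PB2, and of Vcl, past 2-fold towards the zygote, are printed because the RefSeq start coincides there with the start of the GENCODE gene. Capitals mark CAGGTG, searched on both strands (as CAGGTG or CACCTG), an E-box sequence known from the E-cadherin promoter as a site for Snail and Zeb repressors.
Pard6b, chr2:168080754-168081003, plus strand: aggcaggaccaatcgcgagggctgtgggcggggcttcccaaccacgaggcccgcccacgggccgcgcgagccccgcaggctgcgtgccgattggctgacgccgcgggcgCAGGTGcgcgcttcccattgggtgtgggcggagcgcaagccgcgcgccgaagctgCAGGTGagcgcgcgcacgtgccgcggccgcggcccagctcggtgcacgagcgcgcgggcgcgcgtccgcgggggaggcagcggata
Mark2, chr19:7341861-7342110, minus strand: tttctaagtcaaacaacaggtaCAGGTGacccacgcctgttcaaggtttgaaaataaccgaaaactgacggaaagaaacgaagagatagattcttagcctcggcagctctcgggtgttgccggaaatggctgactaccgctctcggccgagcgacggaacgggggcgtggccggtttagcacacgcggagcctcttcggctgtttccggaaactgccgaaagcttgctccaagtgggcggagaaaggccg
Vcl, chr14:20929148-20929397, plus strand: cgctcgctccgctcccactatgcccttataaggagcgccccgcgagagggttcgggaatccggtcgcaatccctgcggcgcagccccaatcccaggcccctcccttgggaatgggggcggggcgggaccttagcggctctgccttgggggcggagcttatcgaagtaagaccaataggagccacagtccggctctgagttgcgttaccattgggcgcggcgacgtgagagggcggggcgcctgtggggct

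The Pard6b window holds 2 matches and the Mark2 window 1, and the windows nearest the gene start of Pard3, Prkci, Jup, Ctnnd1 and Vcl hold none. Pard3, Ctnnd1 and Mark2 also have a window farther from the gene start. That of Pard3 holds 3 matches, and those of Ctnnd1 and Mark2 hold none. Of 32851 RefSeq windows of this length 17.2% hold at least 1, counted over all windows rather than 1 per gene. The windows nearest the gene start differ in CpG dinucleotides, beside a median of 6 over all windows. They hold 43 in Pard6b, 34 in Pard3, 24 in Vcl, 22 in Mark2, 17 in Prkci, 13 in Jup and 3 in Ctnnd1. The farther windows hold 26 in Ctnnd1, 6 in Mark2 and 5 in Pard3. High CpG counts were thus found in members on either side of the comparison.

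Each member was set beside the other genes of its family to see which paralog made up most of the transcripts. Prkci made up 98.2% of the summed aPKC transcripts in PB2 and 98.4% in the zygote, with Prkcz at 0.3 and 0.4 TPM. Pard3 made up 99.4% and 96.7% of the Par3 transcripts, with Pard3b at 0.3 and 0.6 TPM. For aPKC and Par3, then, a single gene held nearly the whole family in both libraries. The Par6 family was spread over 3 genes. Pard6b held 54.8% of it in PB2 and 43.5% in the zygote, Pard6g had 41.2 and 22.1 TPM, and Pard6a had 24.6 and 12.0 TPM. All 3 Par6 genes had the higher level in PB2, although Pard6a (log2 ratio 0.98) and Pard6g (0.87) stayed under 2-fold. For Pard6a this was only because of the pseudocount, since its level in PB2 was 2.05 times that in the zygote. With the GC trend removed the log2 ratios of Pard6a and Pard6g were 0.14 and 0.66.

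Mark2 made up 88.7% of the Par1 transcripts in PB2 and 85% in the zygote. Mark4 had 14.4 TPM in PB2 against 3.0 in the zygote, a log2 ratio of 1.94. Mark3 went the other way, with 1.0 and 3.7 TPM, and Mark1 had 1.0 TPM in PB2 and was listed at 0 in the zygote. Among classical cadherins Cdh1 was the most abundant gene in both libraries, with 62.1% of the summed level in PB2 and 49.7% in the zygote. Cdh2, which encodes N-cadherin, had 18.5 TPM in PB2 against 13.1 in the zygote. Cdh1 thus stood at 2.96 times the level of Cdh2 in PB2 and 1.34 times in the zygote. Cdh3 (7.9 and 2.2 TPM) and Cdh4 (7.0 and 2.4 TPM) were past 2-fold towards PB2 at low levels.

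Some members were minor genes of their family. Jup made up 3.99% of the transcripts of β-catenin and plakoglobin in PB2 and 5.28% in the zygote, and the rest was Ctnnb1, with 149.3 TPM in PB2 against 50.2 in the zygote. Ctnnd1 held 15.0% and 18.1% of the p120-type catenins, behind Pkp4 (36.4 and 20.6 TPM), while Arvcf had 3.2 and 0.4 TPM and Ctnnd2 at most 0.7 TPM. Ctnna1 was the most abundant of the α-catenins, followed by Ctnnal1, which encodes α-catulin (65.0 and 68.7 TPM). Ctnna3, which encodes αT-catenin, had 12.0 TPM in PB2 against 25.2 in the zygote, a log2 ratio of -1.01, and so lay on the same side as Ctnna1 and Vcl. The lower level in PB2 did not hold for the whole family, since Ctnna2 had 2.4 TPM there and 0.7 TPM in the zygote.

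**Figure D3:**
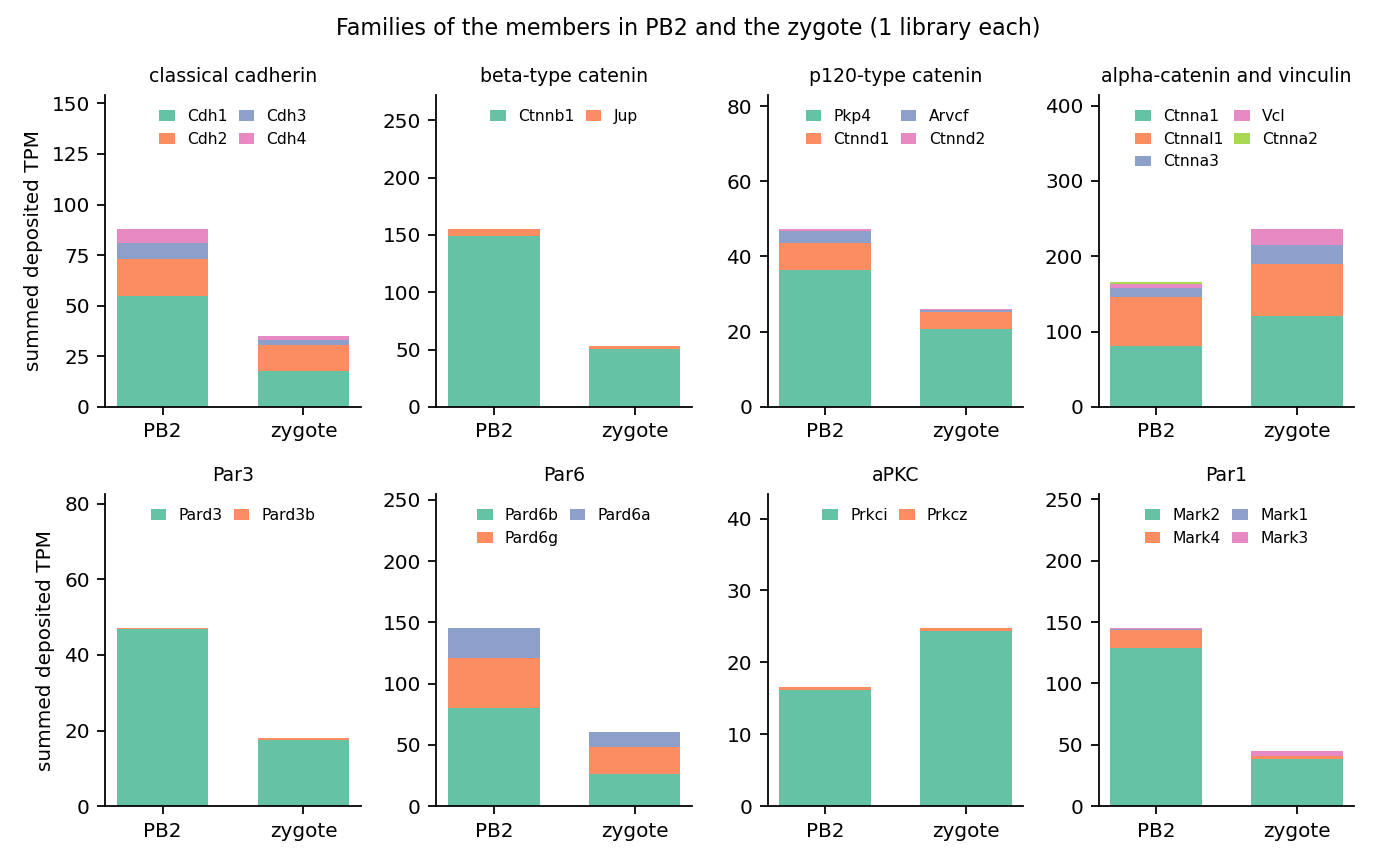
Summed deposited TPM of 8 gene families in the PB2 and the zygote library, 1 library each, with the genes of a family stacked in colours and a separate scale from 0 for each family. The stacks are taller in PB2 for the cadherins, β-type and p120-type catenins, Par3, Par6 and Par1, and taller in the zygote for aPKC (16.5 against 24.8 TPM) and for α-catenin with vinculin (165.8 against 236.7 TPM).

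Beyond the members, 114 other genes of junctions and polarity were listed by their known roles, and 86 of the 93 found in the table had at least 1 TPM in either library. Of these, 25 were past 2-fold towards PB2, 29.1% beside 18.9% of all genes, and 4 towards the zygote, 4.65% beside 8.09%. With the GC trend removed the counts were 12 and 4, where 9.08% and 11% of all genes passed, and 10 of the 25 and 3 of the 4 were among them. The adhesion lists gave 14 of 41 genes towards PB2 (34.1%) and 1 towards the zygote (2.44%), with a median log2 ratio of 0.69. The polarity lists gave 11 of 45 (24.4%) and 3 (6.67%), with a median of 0.37.

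Cadherins other than Cdh1 had the highest median of the lists, 1.36 over 4 genes. Cdh3, Cdh4 and Cdh24 (7.4 TPM in PB2, 0.60 in the zygote) were past 2-fold towards PB2, 75% beside 18.9% of all genes. Of these cadherins Cdh4 lay under 2-fold with the GC trend removed, at 0.60 on the log2 scale. Desmosome genes were low, with 3 of 11 listed genes compared and at most 3.1 TPM, for Dsc2 in the zygote. Dsg1a had 2.7 TPM in PB2 and 1.8 in the zygote, and Pkp2 had 1.4 and 0.8 TPM. Of 17 actin linkers and nectins, 3 were past 2-fold towards PB2, 17.6% beside 18.9% of all genes, and none towards the zygote. They were Actn4, an α-actinin that crosslinks actin (45.9 TPM in PB2, 8.7 in the zygote), the adhesion receptor Nectin2 (6.7 and 0.80 TPM) and Evl, an actin elongation factor (8.2 and 2.9 TPM). Evl lay under 2-fold with the GC trend removed, at a log2 ratio of 0.25. Afdn, which encodes the nectin-binding afadin, had 50.8 and 34.4 TPM, and Nectin3 had 64.6 and 83.9 TPM, both within 2-fold.

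Of 11 genes of cadherin turnover and of microtubules at junctions, 5 were past 2-fold towards PB2, 45.5% beside 18.9% of all genes. The median GC content of the 11 genes was 55.8%, in a range where 39.2% of genes were past 2-fold towards PB2. Camsap3, which anchors microtubule minus ends at the zonula adherens, had 46.0 TPM in PB2 against 2.8 in the zygote, a log2 ratio of 3.63 and of 2.68 with the GC trend removed. The others were the tyrosine phosphatases Ptprf (8.4 and 1.8 TPM) and Ptpn1 (5.8 and 1.6 TPM), the Rap1 exchange factor Rapgef1 (6.8 and 1.6 TPM) and the lipid kinase Pip5k1c (5.9 and 2.1 TPM). The log2 ratios of these 4 genes ran from 0.24 to 0.88 with the GC trend removed, all under 2-fold. The abundant genes of this list stayed within 2-fold, among them Rap1b (372.7 and 347.0 TPM) and Rap1a (110.3 and 64.0 TPM), small GTPases that promote cadherin adhesion. So did Adam10 (22.8 and 28.9 TPM), which cleaves E-cadherin. With the GC trend removed Rap1a (GC content 38.8%) was past 2-fold towards PB2, at a log2 ratio of 1.17.

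**Figure D4:**
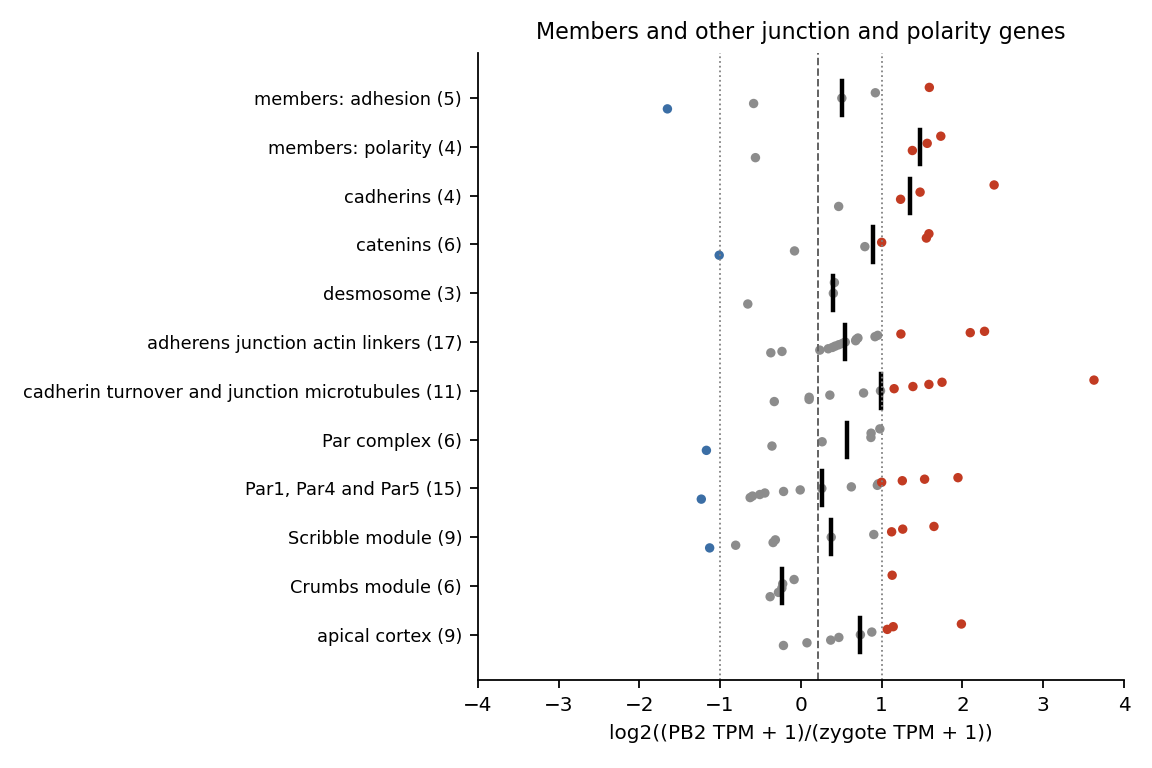
Log2 ratio of each gene compared (points), for the members and for 10 lists of other junction and polarity genes, with the number of genes in parentheses, a black bar at each median, red and blue points past 2-fold towards PB2 and the zygote, dotted lines at 2-fold and a dashed line at the median of all genes (0.21). The list of cadherins has the highest median (1.36) and the Crumbs module the lowest (-0.23).

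Among activators of the Par complex, Cdc42, the GTPase that binds Par6, was past 2-fold towards the zygote. It had 214.1 TPM in PB2 against 482.8 in the zygote, a log2 ratio of -1.17, which was -0.98 and just under 2-fold with the GC trend removed. Cdc42 was 1 of 6 genes of this list compared, 16.7% beside 8.09% of all genes, and none of the 6 was past 2-fold towards PB2. Rac1 (343.0 and 187.6 TPM) and its exchange factor Tiam1 (180.2 and 150.0 TPM) stayed within 2-fold. Cdc42 and Prkci, partners of Par6, thus had their lower level in PB2, and all 3 Par6 genes their higher level. With the GC trend removed the log2 ratio was 0.14 for Pard6a, 0.66 for Pard6g, 0.999 for Pard6b and -0.48 for Prkci. The part of GC content in this contrast was not tested.

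Par1, the kinase Lkb1 with its partners and the 14-3-3 proteins gave 4 of 15 genes towards PB2, Mark1, Mark4, the Lkb1 partner Stradb (83.7 and 28.3 TPM) and the 14-3-3 gene Ywhab (521.2 and 217.7 TPM), and 1, Mark3, towards the zygote. These were 26.7% of the list beside 18.9% of all genes and 6.67% beside 8.09%. Mark1, with 1.0 TPM in PB2 and 0 in the zygote, sat at the filter and, with the pseudocount of 1, at the 2-fold threshold itself. Mark1 and Mark4 lay under 2-fold with the GC trend removed, at log2 ratios of 0.69 and 0.97. The abundant 14-3-3 genes Ywhae (504.1 and 687.1 TPM) and Ywhaz (313.2 and 363.5 TPM) lay within 2-fold. So did the 14-3-3 gene Sfn (5.8 and 9.3 TPM). With the GC trend removed Sfn was past 2-fold towards the zygote, at a log2 ratio of -1.54. In the Scribble module the Lgl genes Llgl1 (25.8 and 11.3 TPM) and Llgl2 (22.5 and 6.5 TPM) and the Scribble partner Git1 (11.7 and 4.3 TPM) were past 2-fold towards PB2. Dlg1, a scaffold of the same module, was past it towards the zygote (7.0 and 16.5 TPM). Of the 9 genes compared in this module, 33.3% were thus past 2-fold towards PB2 and 11.1% towards the zygote, beside 18.9% and 8.09% of all genes. The log2 ratios of Llgl1 (0.25), Llgl2 (0.68) and Git1 (0.35) were under 2-fold with the GC trend removed, and that of Dlg1 was just past it.

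In the Crumbs module, the other apical complex, Crb3 was past 2-fold towards PB2 (126.6 and 57.3 TPM), but its log2 ratio was 0.27 with the GC trend removed. This was 1 of the 6 genes compared, 16.7% beside 18.9% of all genes. The other 5 genes, among them Mpp5 (52.2 and 63.5 TPM) and Lin7c (85.4 and 100.7 TPM), had the lower level in PB2 and lay within 2-fold. With the GC trend removed Mpp5 (log2 ratio 0.08) and Lin7c (0.22) changed side. Crb1 (-0.17), Patj (-0.37) and Epb41l5 (-0.09) did not. At the apical cortex, Rdx, which encodes the membrane-actin linker radixin, was the most abundant gene of all lists, with 2719.9 TPM in PB2 against 1295.2 in the zygote. Rdx, Slc9a3r1 (32.3 and 7.4 TPM), which encodes a scaffold that binds such linkers, and Nf2 (14.9 and 6.2 TPM), which encodes merlin, were past 2-fold towards PB2, and Nf2 lay under it with the GC trend removed, at a log2 ratio of 0.61. Of the 9 genes compared at the apical cortex these 3 were 33.3%, beside 18.9% of all genes. Rock1 (261.8 and 142 TPM) lay within 2-fold. With the GC trend removed Rock1 was past 2-fold towards PB2, at a log2 ratio of 1.20. Ezr, the gene of ezrin, had only 2.1 and 1.4 TPM.

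The genes of the table whose pair of levels was nearest to that of Mark2, by distance over log2(TPM + 1) in the 2 libraries, were Med17 (140.7 TPM in PB2, 40.0 in the zygote), Nelfa (140.4 and 40.6 TPM) and Saraf (114.8 and 39.6 TPM). Nearest to Vcl were Sdhb (5.8 and 20.6 TPM), Adprm (5.7 and 20.1 TPM) and Pggt1b (6.4 and 21.8 TPM). A likeness over 2 values is a description of these levels only.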

How the data were processed

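The authors prepared amplified cDNA, aligned the reads with HISAT2 2.0.4 and counted them per gene with HTSeq 0.6.1p1 on Ensembl annotation v85. DESeq2 1.18.1 was used by the authors for normalization. The deposited values are TPM, rounded to 1 decimal, and how they were computed is not given in the sources used here. The methods name the rabbit assembly OryCun2.0, the processing notes also name GRCm38, and the identifiers are mouse. Depth is unknown, so no counting interval is given.

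Log2 ratios with a pseudocount of 1 were computed over genes with at least 1 TPM in either library and counted at 2-fold. With 1 library per group no test was run. Lengths, GC content and positions came from GENCODE M21 (GRCm38), by the longest protein-coding transcript, for 10606 of the genes compared. Trends on GC content or log10 length were removed by loess (span 0.3). The GC step was tested on simulated data with a linear trend and with low levels raised to a floor, so low genes were not covered. The length step was not tested in this way. The alternatives changed the pseudocount (0.1, 0.01), the fold (1.5, 4), the filter (none, 5 TPM) or the scaling (zygote to a median ratio of 1, or both libraries after dropping the 50 most abundant and all mitochondrially encoded genes), centred the ratios or removed a trend.

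The members and lists were chosen with earlier results of these data known. The values of 1 gene are not reported here, and it was left out of the lists. Named were the members and their paralogs, in each list the 3 genes with the highest mean TPM and those past 2-fold that reached 5 TPM, the 3 genes nearest to the members with the largest and smallest log2 ratio, and leading markers. Genes overlapping a member, Ezr, Sfn, Crb1, Patj and Epb41l5 were named beside these after their values were seen. Python 3.11.15, pandas 2.3.3 and statsmodels 0.14.6 were used.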

Additional observations from a re-analysis of the deposited data

How the results depend on the processing

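No paired analysis was possible because each group has 1 library. Of 156 values under 11 alternatives, 137 stayed within the limits set (1.5 times for a count, 0.5 for a log2 ratio), 19 moved and none of the called log2 ratios changed sign. At 1.5-fold 5 members passed towards PB2 and 1 towards the zygote. Of all genes 3642 (34.2%) and 1924 (18.1%) passed, and of the list genes 42 and 8. Ctnna1, at a log2 ratio of -0.58, sat at this threshold itself and was not counted as past it, although Mark1, at the 2-fold threshold, was counted. The members' count of 1 towards the zygote at 1.5-fold thus rests on how this tie is treated. At 4-fold 0 members passed in either direction, with 264 (2.48%) and 74 (0.695%) of all genes and 4 and 0 of the list genes. These shifts follow from the thresholds. With the GC trend removed 1 member was higher in PB2, and the median log2 ratio of the members was 0.40. Of all genes 963 (9.08%) were then higher in PB2, and 12 list genes were. With the length trend removed the members gave 4 and 1 as before, while 1283 of all genes and 16 list genes were higher in PB2. Either removal centres the ratios as well; beyond that, the cause was not tested. Pard6b, at 0.999 with the GC trend removed, sat at the threshold. With unknown depth, Jup, Ctnnd1 and Vcl, all under 10 TPM in PB2, are limited most by counting error, by an amount that cannot be given.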
